A study of Mus musculus with 12 samples.

Results

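The guanylate-binding protein genes Gbp2, Gbp3, Gbp4, Gbp5, Gbp6, Gbp7, Gbp8 and Gbp9 were followed in TRAMP-C2 prostate tumors treated with the STING agonist ADU-S100, with cyto-IL-15 or with both. The genes were found by matching the Ensembl identifiers of the count files to these 8 mouse symbols, without use of their levels. They are 8 of the 49315 genes counted, and 8 of the 11 genes with a Gbp symbol, the other 3 being Gbp2b, Gbp10 and Gbp11. All 8 passed the filter on low counts in every comparison, with 284 to 35869 reads per gene and tumor.

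Cells of TRAMP-C2, a line from a mouse prostate carcinoma, had been grown under the skin of the right flank of male C57BL/6J mice that were 6 to 8 weeks old. Tumors of about 200 mm3 were injected directly, and on day 6 they were collected and divided in parts. RNA from tissue of 12 tumors, 3 per group, was sequenced. In the combination group mice received both agents, in the ADU-S100 group 3 doses of 50 µg ADU-S100, a cyclic dinucleotide that activates STING, in the cyto-IL-15 group 2 doses of 10 µg of an interleukin-15 that anchors to cell membranes, and in the HBSS group 3 doses of 50 µl of the salt solution in which ADU-S100 was dissolved. All 4 groups carried the same implanted line and were injected into the tumor, the treated groups on days 0 to 4. The labels name each tumor (20L, 22 and 28LL for the combination, 17LL, 18R and 22LR for ADU-S100, 9R, 13 and 20LL for cyto-IL-15, and 19, 22R and 22LL for HBSS), and the p-values measure the spread between these tumors. Each HBSS tumor enters all comparisons with HBSS, so those comparisons are not independent of each other.

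Guanylate-binding proteins are large GTPases of the dynamin superfamily that interferon-γ, and to a lesser degree type I interferon, switches on in most cell types. They assemble on the membranes of bacteria and on the vacuoles that enclose bacteria or parasites, break them open, and help the inflammasomes that sense cytosolic DNA and lipopolysaccharide to form. STING, the adaptor that ADU-S100 binds, relays the sensing of cytosolic DNA to the transcription of type I interferon, whose receptor acts through STAT2 and IRF9 on the interferon-stimulated response element, whereas the interferon-γ receptor acts on the GAS element and through IRF1.

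The members lie in 2 clusters of the GRCm38 genome. Gbp5 (142493978 to 142522344), Gbp7 (142530342 to 142550149), Gbp3 (142560026 to 142573209) and Gbp2 (142620602 to 142638008) lie on the plus strand of chromosome 3, and Gbp2b lies between Gbp3 and Gbp2. Gbp8 (105014150 to 105139540), Gbp9 (105077630 to 105139539), Gbp4 (105115767 to 105139586) and Gbp6 (105270702 to 105293698) lie on the minus strand of chromosome 5, together with Gbp10 and Gbp11. RefSeq promoter sequences are shown because all 8 members rose after ADU-S100, and they are given for each member matched in the sequence table, Gbp5, Gbp7, Gbp3 and Gbp2. Gbp4, Gbp6, Gbp8 and Gbp9 were not matched. Each runs 5′ to 3′ on the gene's strand for 250 bases before and 50 bases after the RefSeq start (GRCm38.p6), and capitals mark the interferon-stimulated response element core, searched on both strands as GAAA, any 2 bases and GAAA. The windows are chr3:142496684-142496983 for Gbp5, chr3:142530086-142530385 for Gbp7, chr3:142559794-142560093 for Gbp3 and chr3:142620413-142620712 for Gbp2.
Gbp5: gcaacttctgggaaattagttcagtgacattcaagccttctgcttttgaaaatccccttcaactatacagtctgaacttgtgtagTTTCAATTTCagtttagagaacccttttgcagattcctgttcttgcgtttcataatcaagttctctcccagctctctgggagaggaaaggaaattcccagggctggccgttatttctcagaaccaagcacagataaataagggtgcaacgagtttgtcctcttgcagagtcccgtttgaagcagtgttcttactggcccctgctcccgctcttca
Gbp7: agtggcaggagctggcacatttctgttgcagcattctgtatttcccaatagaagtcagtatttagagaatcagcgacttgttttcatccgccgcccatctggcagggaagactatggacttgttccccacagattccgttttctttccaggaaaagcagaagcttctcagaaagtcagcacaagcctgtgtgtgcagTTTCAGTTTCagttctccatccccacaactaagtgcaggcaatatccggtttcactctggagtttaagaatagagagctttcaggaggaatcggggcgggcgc
Gbp3: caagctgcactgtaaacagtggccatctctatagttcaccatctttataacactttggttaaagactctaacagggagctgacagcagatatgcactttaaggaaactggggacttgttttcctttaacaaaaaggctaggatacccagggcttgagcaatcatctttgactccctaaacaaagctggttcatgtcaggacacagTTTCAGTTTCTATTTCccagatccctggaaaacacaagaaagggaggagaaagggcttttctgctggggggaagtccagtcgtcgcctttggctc
Gbp2: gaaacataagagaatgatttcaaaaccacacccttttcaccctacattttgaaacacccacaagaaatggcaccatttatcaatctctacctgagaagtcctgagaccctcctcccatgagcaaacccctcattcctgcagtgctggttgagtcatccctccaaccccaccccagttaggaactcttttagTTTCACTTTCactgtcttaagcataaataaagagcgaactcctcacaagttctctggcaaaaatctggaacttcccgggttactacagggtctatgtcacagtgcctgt
The core was read in 4 of the 4 members with a sequence and in 4 of their 5 windows, always as its reverse complement. Of all mouse promoters of this length, 3.443% of the 32851 windows and 3.993% of the genes hold it on either strand. Relative to the start, its first base lies at -59 in Gbp2, at -53 in Gbp7 and at -165 in Gbp5. In Gbp3 a pair of matches overlap, with first bases at -45 and -39, and a second RefSeq start of Gbp3 has no match in its window. The GAS core, searched as TTCNNNGAA, which is its own reverse complement, was present in Gbp5 (first bases at -245 and -52) and in Gbp7 (at -106 and -87), against 8.298% of all promoters. The RefSeq start of Gbp5 lies 2956 bases inside the gene as the count files draw it, while those of Gbp2, Gbp7 and the printed window of Gbp3 lie within 61 bases of the file's start. These matches describe letters and were not tested as binding sites.

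The reads of most members can be told apart by sequence. None of the 100-base stretches of the Gbp2 and Gbp5 exons occurs in another Gbp gene, and the share is 0.428% for Gbp7, 0.694% for Gbp3, 1.64% for Gbp4, 1.65% for Gbp9 and 4.39% for Gbp8. Gbp6 is the exception, since 37.3% of its stretches occur in another Gbp gene, nearly all of them in Gbp10. The split of reads between Gbp6 and Gbp10 is therefore uncertain. In addition, 29.0% of the exon bases of Gbp6 are shared on the same strand with Gm43302, which had at most 15 reads in a tumor, and 11.4% of those of Gbp7 with Gm43802, which had none. Gbp4, Gbp8 and Gbp9 share a first exon of about 60 bases.

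Total counts ranged from 48772204 to 103700199 per tumor. Tumors 13 and 28LL, picked with earlier results of these data known, stood apart from the other tumors of their groups. They also held the lowest and the highest mean level of the members. The comparisons that hold them are also given without them, which leaves fewer tumors in the cyto-IL-15 and combination groups. Levels are given as CPM (reads of a gene relative to the TMM-scaled library size of its tumor). The epithelial markers, listed to show carcinoma cells (Krt8, Krt18, Epcam, Cdh1 and Krt19), summed to 8.80 to 51.4 CPM in 10 tumors. They were higher in cyto-IL-15 tumor 13 (609.8 CPM) and HBSS tumor 22LL (176 CPM). The keratinocyte list was also highest in tumors 13 (59.9 CPM) and 22LL (129 CPM). It summed to 47.0 CPM in an ADU-S100 tumor and to 4.54 to 9.85 CPM in the others. Which cells the epithelial markers came from was not tested. The fibroblast list, led by collagen genes, summed to 8245 to 24512 CPM. RNA of unsorted tumor tissue does not tell fewer cells of a type from less RNA per cell.

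Among the 8 members Gbp2 was the most abundant and Gbp6 or Gbp8 the least. On the TPM scale, which divides by gene length, Gbp2 ranked first in 12 of 12 tumors and Gbp3 second in 11, tumor 13 being the exception with Gbp7 second. The mean level of Gbp2 was 342 TPM in combination tumors, 369 TPM in ADU-S100 tumors, 137 TPM in cyto-IL-15 tumors and 130.3 TPM in HBSS tumors. In HBSS tumors the order was Gbp2, Gbp3, Gbp9, Gbp7 and Gbp4, and each of these exceeded the next without overlap in TPM between the 3 tumors. Below Gbp4, the ranges of Gbp4 (9.61 to 10.3 TPM), Gbp5 (6.64 to 9.82 TPM) and Gbp8 (7.13 to 8.84 TPM) overlapped for Gbp4 and Gbp5 and for Gbp5 and Gbp8, and Gbp6 was lowest in each tumor (4.61 to 6.27 TPM). In the 3 ADU-S100 tumors the last place was held by Gbp8 (12.8 to 19.8 TPM), and Gbp6 stood at 17.0 to 34.2 TPM.

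**Figure D1:**
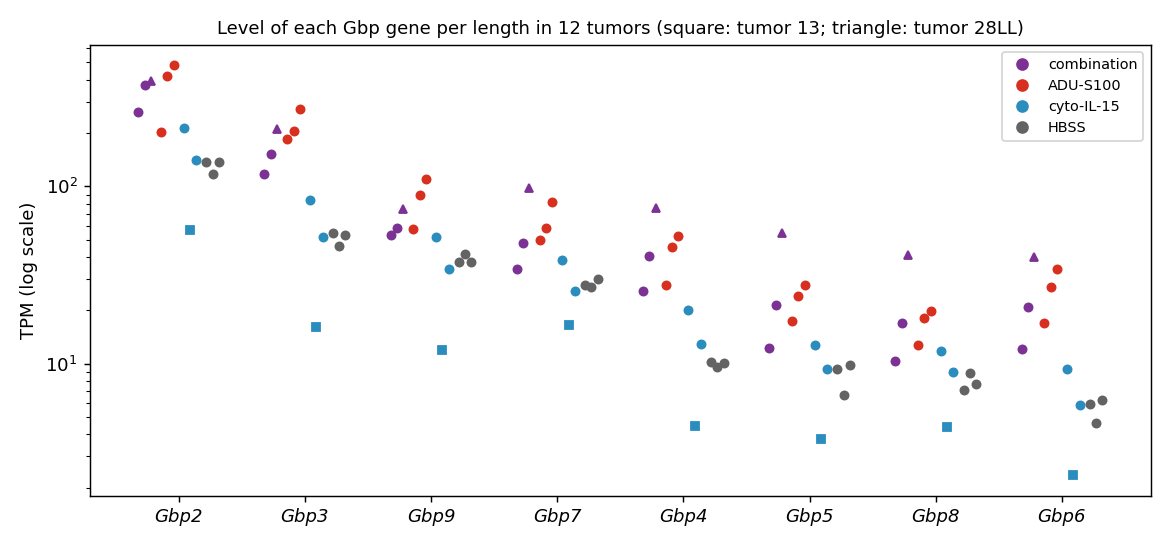
Length-scaled level (TPM, log scale) of the 8 Gbp genes in each of the 12 tumors, with the genes ordered along the horizontal axis and the groups side by side within each gene, 1 point per tumor. Gbp2 is the highest gene in every tumor, and tumor 13 (square) is the lowest point of every gene.

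The mean composition of the family varied between groups, most of all in the share of Gbp3. Gbp3 made up 21.5% ± 0.670 of the summed TPM of the 8 genes in combination tumors, 26.9% ± 4.87 in ADU-S100 tumors, 16.9% ± 2.73 in cyto-IL-15 tumors and 18.2% ± 0.659 in HBSS tumors (SD, n = 3 each). Gbp9 made up 8.53% ± 1.35 in combination tumors, 10.1% ± 0.120 in ADU-S100 tumors, 11.3% ± 0.912 in cyto-IL-15 tumors and 13.9% ± 1.73 in HBSS tumors. Gbp2 kept the largest share, with 46.8% ± 6.28 in combination tumors, 42.5% ± 6.12 in ADU-S100 tumors, 48.6% ± 0.221 in cyto-IL-15 tumors and 46.3% ± 1.41 in HBSS tumors. These shares are descriptions and were not tested.

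All 8 members were higher after ADU-S100 alone. The 8 genes summed to 747, 1064 and 1264 CPM in ADU-S100 tumors 17LL, 18R and 22LR, against 374, 313 and 326 CPM in HBSS tumors 19, 22R and 22LL. All 8 genes were called higher by edgeR (Benjamini-Hochberg adjusted p under 0.05 and log2 fold change above 1), where 2.75% of the 18911 genes tested were called higher. For all 8 the 3 ADU-S100 tumors lay above the 3 HBSS tumors, which held for 16.4% of all genes tested. The median log2 fold change was 1.49 over the 8 genes and 0.03 over all genes.

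**Figure D2:**
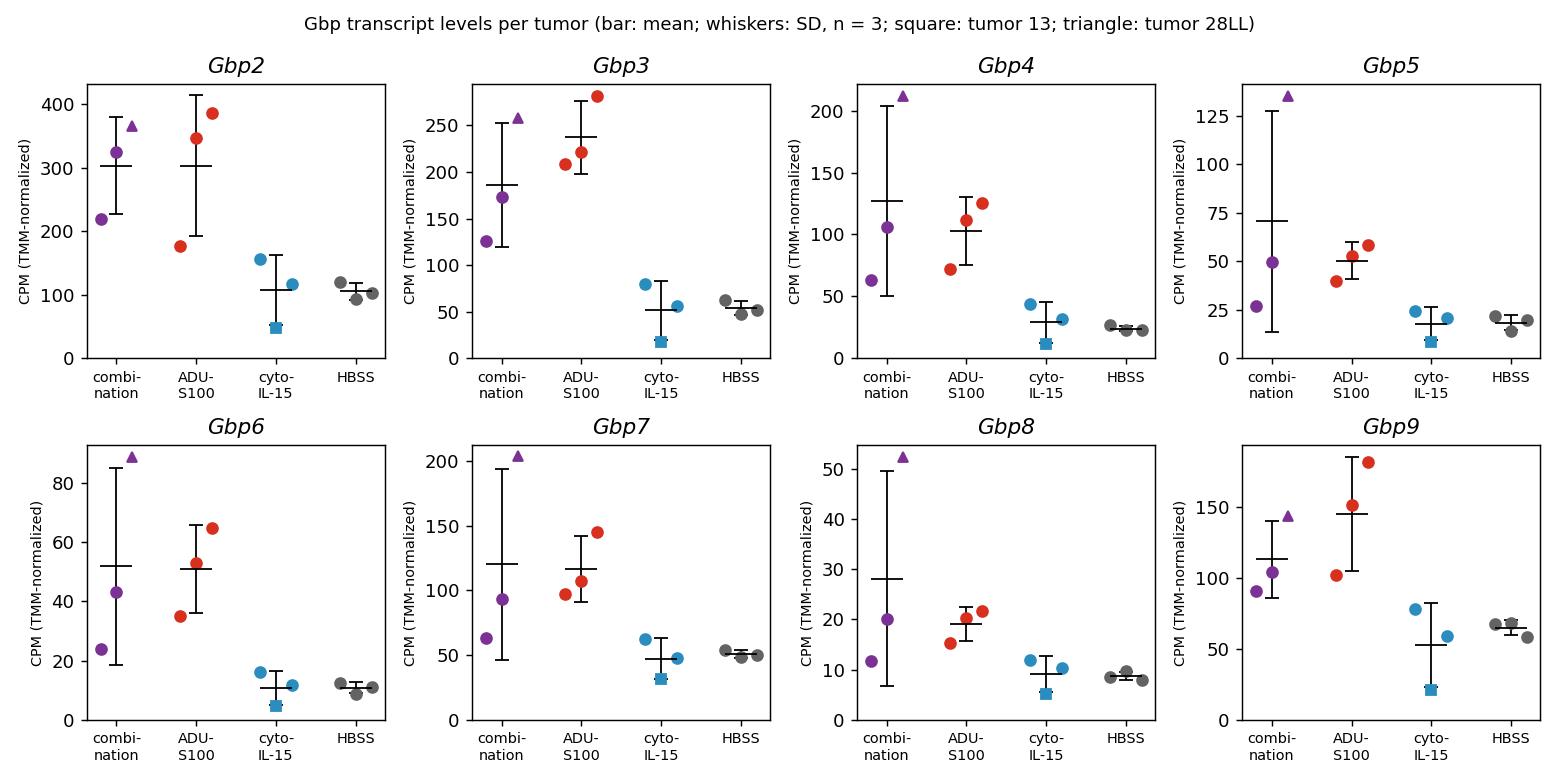
TMM-normalized CPM of each Gbp gene, 1 panel per gene with the vertical axis from 0, in combination, ADU-S100, cyto-IL-15 and HBSS tumors, with points for tumors, a bar for the mean and whiskers for the SD (n = 3). All points of the combination and ADU-S100 groups lie above all HBSS points in each panel, and tumor 28LL (triangle) is the highest combination tumor in each.

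In the chromosome 3 cluster, Gbp2 coats the vacuole of Toxoplasma and takes part in the lysis of cytosolic bacteria in mice. It stood at 177, 347 and 386 CPM in ADU-S100 tumors, against 120.4, 93.3 and 103 CPM in HBSS tumors. Tumor 17LL was the lowest of the ADU-S100 tumors but still above each HBSS tumor, and the log2 fold change was 1.52 (SE 0.28, edgeR adjusted p = 0.0257). Gbp3, a gene of the block whose joint deletion lowers the resistance of mice to Toxoplasma, stood at 209, 221 and 281 CPM in ADU-S100 tumors, against 62.5, 47.7 and 52.1 CPM in HBSS tumors. Here the 3 ADU-S100 tumors lay close together, at more than 3 times any HBSS tumor, with a log2 fold change of 2.14.

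Gbp5, which promotes assembly of the NLRP3 inflammasome, had 39.8, 52.5 and 58.6 CPM in ADU-S100 tumors, against 21.7, 14.0 and 19.6 CPM in HBSS tumors. The groups were separate, and the log2 fold change was 1.45 (SE 0.20, edgeR adjusted p = 0.00612). Gbp7, linked in mouse macrophages to the delivery of NADPH oxidase to bacterial vacuoles, had 97.2, 107 and 145 CPM in ADU-S100 tumors, against 54.3, 48.4 and 50.4 CPM in HBSS tumors. Its HBSS tumors differed by little, its log2 fold change was 1.20 (SE 0.15), and the adjusted p by edgeR was 0.0046.

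The chromosome 5 cluster was raised as well, most of all Gbp6 and Gbp4. Gbp6, whose knockdown in mouse macrophages lowers their control of bacteria, had 35.1, 52.9 and 64.7 CPM in ADU-S100 tumors, against 12.3, 8.71 and 11.2 CPM in HBSS tumors, a log2 fold change of 2.25 (SE 0.23, edgeR adjusted p = 0.00253). Gbp4 had 71.8, 111 and 125 CPM in ADU-S100 tumors, against 26.9, 22.8 and 22.7 CPM in HBSS tumors, a log2 fold change of 2.09 (SE 0.20, edgeR adjusted p = 0.00149). In both genes tumor 17LL was the lowest and tumor 22LR the highest of the ADU-S100 tumors, as in the summed level.

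Gbp8 and Gbp9 moved least in this cluster. Gbp8 had 15.2, 20.3 and 21.6 CPM in ADU-S100 tumors, against 8.56, 9.65 and 7.97 CPM in HBSS tumors, with a log2 fold change of 1.13 (SE 0.17, edgeR adjusted p = 0.00845). Gbp9 had 102, 152 and 182 CPM in ADU-S100 tumors, against 67.7, 68.4 and 58.6 CPM in HBSS tumors, with a log2 fold change of 1.17 (SE 0.19, edgeR adjusted p = 0.0141). The groups did not overlap for either gene. The 8 log2 fold changes thus ran from 1.13 to 2.25 with SEs of 0.15 to 0.28, so that Gbp3, Gbp4 and Gbp6 stood above Gbp7, Gbp8 and Gbp9, a difference between genes that was not tested.

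Of the other Gbp genes, Gbp10 and Gbp11 rose and Gbp2b was not called. Gbp10, near-identical to Gbp6 over much of its length, had 3.49, 7.38 and 8.35 CPM in ADU-S100 tumors, against 0.716, 0.389 and 0.470 CPM in HBSS tumors, a log2 fold change of 3.62 (SE 0.40, edgeR adjusted p = 0.00237). Gbp11 had 1.36, 3.49 and 3.94 CPM in ADU-S100 tumors, against 0.179, 0.375 and 0.437 CPM in HBSS tumors, a log2 fold change of 3.13 (SE 0.49, edgeR adjusted p = 0.0104). Gbp2b, the neighbor of Gbp2 on chromosome 3, also holds the response element core in its promoter (first base at -137), yet its levels overlapped, at 0.617, 1.31 and 0.517 CPM in ADU-S100 tumors and 1.43, 0.469 and 1.42 CPM in HBSS tumors. Its log2 fold change was -0.44 (SE 0.50, edgeR adjusted p = 0.631). These 3 genes had far fewer reads than the 8 members, with 11 to 2349 per tumor.

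The calls of ADU-S100 against HBSS held with DESeq2 (8 of 8 members, 783 of 37614 genes higher). They also held in the fit of 10 tumors that leaves out 13 and 28LL (8 of 8, 423 of 20675 genes higher). In an edgeR fit of all 12 tumors, where no gene at all was called, they fell to 0 of 8, at adjusted p of 0.240 to 0.520. There 8 of 8 had an unadjusted p under 0.05 (1003 of 20132 genes, higher), and the log2 fold changes kept a median of 1.49. Without ADU-S100 tumor 22LR the calls fell to 5 of 8 (455 of 19268 genes higher).

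The combination was set against HBSS to see whether the family also differed with both agents, and all 8 values were above 0 but none passed the adjusted threshold by edgeR. The 8 genes summed to 626, 915 and 1459 CPM in combination tumors 20L, 22 and 28LL, against 374, 313 and 326 CPM in the same HBSS tumors as above. By edgeR 0 of 8 members were called, at adjusted p of 0.185 to 0.226, as was 0.0% of all 18565 genes, although 8 of 8 had an unadjusted p under 0.05 (11.0% of all genes, higher). All 8 were without overlap between the groups (15.0% of all genes, higher). DESeq2 called 6 members, all but Gbp7 and Gbp9, and 934 of 38026 genes higher. Without tumor 28LL, edgeR called Gbp2, Gbp3, Gbp4 and Gbp6 (184 of 19000 genes higher). In the fit of 10 tumors it called Gbp3, Gbp4 and Gbp6 (251 of 20675 genes higher).

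The combination tumors were spread widely, from 20L at the low end to 28LL at the high end, and by an amount that depended on the gene. Gbp4 had 63.4, 106 and 212 CPM in combination tumors, against 26.9, 22.8 and 22.7 CPM in HBSS tumors, with a log2 fold change of 2.41 (SE 0.45, edgeR adjusted p = 0.185). Gbp5 had 26.9, 49.5 and 135 CPM in combination tumors, against 21.7, 14.0 and 19.6 CPM in HBSS tumors, with a log2 fold change of 1.96 (SE 0.60, edgeR adjusted p = 0.212). Without tumor 28LL the log2 fold changes were 1.81 for Gbp4 and 1.06 for Gbp5. For Gbp5, tumor 20L was near the highest HBSS tumor and tumor 28LL stood well above all others.

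Gbp6 had 23.8, 43.1 and 88.6 CPM in combination tumors, against 12.3, 8.71 and 11.2 CPM in HBSS tumors, and Gbp8 had 11.8, 20.2 and 52.4 CPM in combination tumors, against 8.56, 9.65 and 7.97 CPM in HBSS tumors. Their log2 fold changes were 2.29 (SE 0.49, edgeR adjusted p = 0.185) and 1.71 (SE 0.54, edgeR adjusted p = 0.215). Gbp7 had 63.4, 93.5 and 204 CPM in combination tumors, against 54.3, 48.4 and 50.4 CPM in HBSS tumors, a log2 fold change of 1.25 (SE 0.43, edgeR adjusted p = 0.226). In these genes tumor 28LL was far above the next combination tumor, and without it the log2 fold changes were 1.64 for Gbp6, 0.87 for Gbp8 and 0.62 for Gbp7.

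Tumor 28LL stood out less in Gbp2, Gbp3 and Gbp9. Gbp2 had 219, 326 and 366 CPM in combination tumors, against 120.4, 93.3 and 103 CPM in HBSS tumors, with a log2 fold change of 1.54 (SE 0.23, edgeR adjusted p = 0.185). Gbp3 had 126, 173 and 258 CPM in combination tumors, against 62.5, 47.7 and 52.1 CPM in HBSS tumors, with a log2 fold change of 1.79 (SE 0.29, edgeR adjusted p = 0.185). Gbp9 had 91.1, 104 and 144 CPM in combination tumors, against 67.7, 68.4 and 58.6 CPM in HBSS tumors, and its log2 fold change of 0.82 (SE 0.20, edgeR adjusted p = 0.189) was the lowest of the 8. Without tumor 28LL these 3 values were 1.37 for Gbp2, 1.47 for Gbp3 and 0.59 for Gbp9. The median over the 8 genes was 1.75, against 0.01 over all genes, and 1.21 without tumor 28LL.

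Cyto-IL-15 alone gave no call in either direction. The 8 genes summed to 474, 147 and 356 CPM in cyto-IL-15 tumors 9R, 13 and 20LL, against 374, 313 and 326 CPM in HBSS tumors, so that tumor 13 lay under and tumor 9R over every HBSS tumor. By edgeR 0 of 8 members were called (0.0% of all 18594 genes higher), 0 had an unadjusted p under 0.05 (2.13% of all genes, higher) and 0 were without overlap (4.88% of all genes, higher), and DESeq2 also called 0. The log2 fold changes ran from -0.30 (Gbp9, SE 0.45) to 0.27 (Gbp4, SE 0.47) with a median of -0.01, against 0.04 over all genes.

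Tumor 13 was the lowest of all 12 tumors for each of the 8 genes. Gbp3 had 79.9, 17.7 and 56.6 CPM in cyto-IL-15 tumors, against 62.5, 47.7 and 52.1 CPM in HBSS tumors, and Gbp9 had 78.4, 20.7 and 59.0 CPM in cyto-IL-15 tumors, against 67.7, 68.4 and 58.6 CPM in HBSS tumors. Gbp4, the gene with the largest positive value, had 43.8, 11.3 and 32.2 CPM in cyto-IL-15 tumors, against 26.9, 22.8 and 22.7 CPM in HBSS tumors, with both cyto-IL-15 tumors other than 13 above every HBSS tumor. Without tumor 13 the median log2 fold change was 0.35, and still 0 of 8 were called. In tumor 13 the leukocyte gene Ptprc was at 68.4 CPM, against 123 to 144 CPM in HBSS tumors, and the fibroblast list at 13765 CPM, against 18942 to 24512 CPM in HBSS tumors. The part of these differences in the low Gbp levels was not tested.

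**Figure D3:**
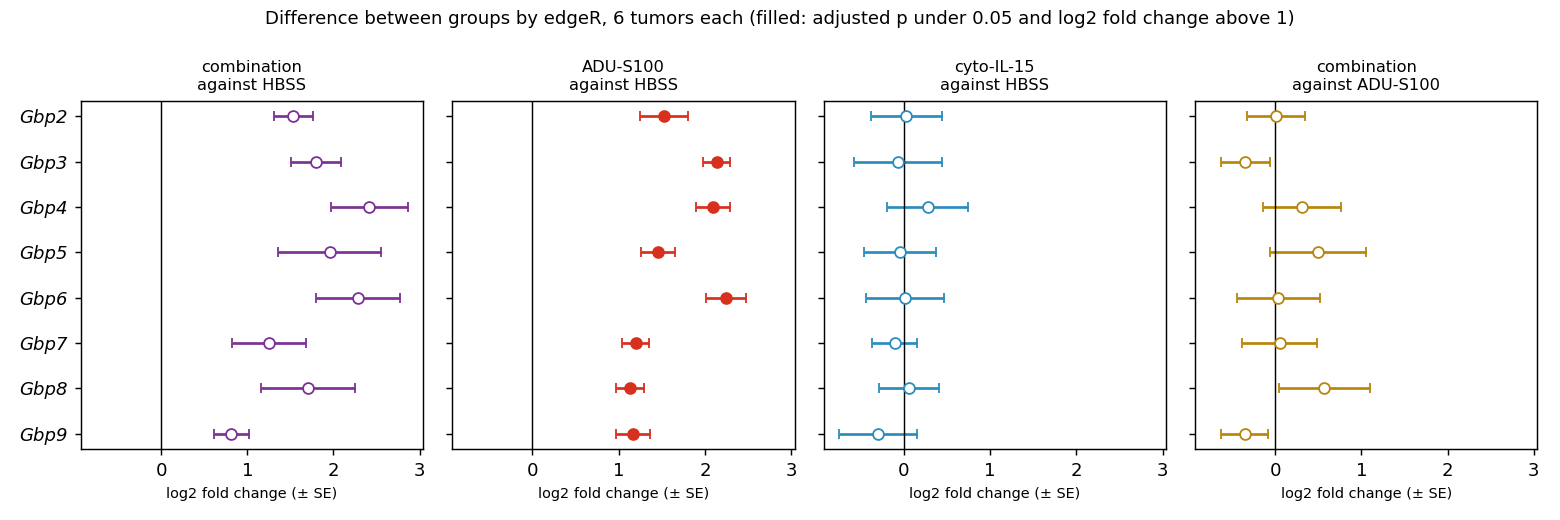
Log2 fold change of each Gbp gene with its SE (horizontal whiskers), from separate edgeR fits of 6 tumors each, for the combination, ADU-S100 and cyto-IL-15 against HBSS and for the combination against ADU-S100, with filled points for called genes. The 8 points of ADU-S100 against HBSS are all filled and between 1.13 and 2.25, and the points of the last 2 panels lie on both sides of 0.

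Against cyto-IL-15, both groups that received ADU-S100 were higher in the family without passing the adjusted threshold by edgeR. In ADU-S100 against cyto-IL-15, 0 of 8 members were called (0.0855% of all 18708 genes higher), 8 had an unadjusted p under 0.05 (3.84% of all genes, higher) and 8 were without overlap (9.38% of all genes, higher). The median log2 fold change was 1.47, with the largest values for Gbp6 (2.21, SE 0.47) and Gbp3 (2.18, SE 0.52) and the smallest for Gbp8 (1.05, SE 0.35). DESeq2 called Gbp3, Gbp4, Gbp6 and Gbp7 (206 of 38183 genes higher). Without tumor 13 edgeR called Gbp3, Gbp5 and Gbp6 (143 of 19660 genes higher) at a median of 1.15. The fit of 10 tumors called Gbp3, Gbp4, Gbp6, Gbp7 and Gbp9 (149 of 20675 genes higher).

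In the combination against cyto-IL-15, 0 of 8 members were called by edgeR (0.0% of all 18619 genes higher) and 0 by DESeq2, each at an edgeR adjusted p of 0.785. All but Gbp9 had an unadjusted p under 0.05, which makes 7 of 8 (3.13% of all genes, higher), and all but Gbp8 were without overlap, also 7 of 8 (6.14% of all genes, higher). The overlap of Gbp8 came from 11.8 CPM in combination tumor 20L, just under 11.8 CPM in cyto-IL-15 tumor 9R. The median log2 fold change was 1.76, against -0.02 over all genes. It was 1.22 without tumor 28LL, 1.39 without tumor 13 and 0.86 in the fit of 10 tumors, with 0 of 8 members called in each.

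The combination and ADU-S100 groups overlapped in every member. By edgeR 0 of 8 were called (0.0% of all 18689 genes higher), 0 had an unadjusted p under 0.05 (2.43% of all genes, higher), 0 were without overlap (4.68% of all genes, higher), and DESeq2 called 0. The log2 fold changes of the combination over ADU-S100 ran from -0.35 (Gbp9, SE 0.27, and Gbp3, SE 0.29) to 0.57 (Gbp8, SE 0.53), with a median of 0.04. With SEs of 0.27 to 0.56, equal levels are not shown. Without tumor 28LL the median was -0.48. In the edgeR fit of 10 tumors all 8 values were below 0, with 3 at an unadjusted p under 0.05 and the smallest adjusted p at 0.448. Of all 20675 genes in that fit, 1635 had an unadjusted p under 0.05, 792 of them higher.

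An interaction over all 12 tumors asked whether the difference made by ADU-S100 depended on cyto-IL-15. By edgeR 0 of 8 members were called (0.0% of all 20132 genes higher) and 0 had an unadjusted p under 0.05 (0.993% of all genes, higher), and DESeq2 called 0. The coefficients ran from -0.28 (Gbp3, SE 0.61) to 0.53 (Gbp5, SE 0.75) on the log2 scale. In the fit of 10 tumors they were all below 0, from -1.0 (Gbp3, SE 0.29, edgeR adjusted p = 0.479) to -0.53 (Gbp2). None was called there, with 3 (Gbp3, Gbp4 and Gbp7) at an unadjusted p under 0.05. Of all 20675 genes in that fit, 1706 had an unadjusted p under 0.05, 712 of them higher.

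Taken over the 6 tumors that received ADU-S100 and the 6 that did not, with cyto-IL-15 as a term in the fit, 6 of 8 members were called higher (1.06% of all 19381 genes), namely Gbp2, Gbp3, Gbp4, Gbp5, Gbp6 and Gbp7. Gbp8 and Gbp9 missed the threshold at edgeR adjusted p of 0.0582 and 0.0558, and 7 of 8 members were without overlap between the 6 and 6 tumors (1.96% of all genes, higher). The largest log2 fold changes were those of Gbp6 (2.25, SE 0.35), Gbp4 (2.11, SE 0.34) and Gbp3 (1.99, SE 0.31). DESeq2 called 8 members (814 of 40564 genes higher). In the fit of 10 tumors (without 13 and 28LL) edgeR called 5, namely Gbp2, Gbp3, Gbp4, Gbp5 and Gbp6 (340 of 19633 genes higher). The median log2 fold change of the 8 members was 1.25 there, against 1.61 over 12 tumors. The count of 6 moved with single tumors. Without HBSS tumor 22R or 22LL it was 2 (Gbp3 and Gbp6), with 59 of 19934 and 64 of 19863 genes called higher. It was 3 without HBSS tumor 19 (81 of 20092 genes higher) or ADU-S100 tumor 18R (94 of 20000) or 22LR (77 of 19926). Without combination tumor 20L it was 8, with 481 of 19963 genes called higher.

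The genes through which interferons act were described from lists chosen with earlier results of these data known, and are given by their counts or, for the ligands and signaling genes, singly. Of the ligands, Ifng (interferon-γ) was the only one that passed the filter in ADU-S100 against HBSS. It had 1.94, 2.18 and 2.04 CPM in ADU-S100 tumors, against 0.472, 0.281 and 0.459 CPM in HBSS tumors, and rose by a log2 fold change of 2.34 (SE 0.30, edgeR adjusted p = 0.00414). In the other groups Ifng stood at 1.11, 3.33 and 10.4 CPM in combination tumors and 1.08, 0.464 and 1.52 CPM in cyto-IL-15 tumors. Its level was thus highest in tumor 28LL, and 2 of 3 cyto-IL-15 tumors were over every HBSS tumor. Ifnb1 (interferon-β) had few reads, with 25 in combination tumor 28LL, 3 in 20L and 2 in 22, with 10, 11 and 26 in ADU-S100 tumors, with 5, 0 and 0 in cyto-IL-15 tumors, and with 1, 0 and 1 in HBSS tumors. Ifnb1 passed the filter in the combination against ADU-S100 and in the interaction alone, where it was not called (edgeR adjusted p of 0.954 and 1.00).

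Among the genes that carry the interferon signal to the nucleus, Stat2 and Irf9, which act together below the type I receptor, were called higher in ADU-S100 against HBSS. Their log2 fold changes were 1.55 (SE 0.14) and 1.32 (SE 0.12), each at an edgeR adjusted p of 0.00116. Irf1, the factor by which interferon-γ acts on late targets, had 239, 265 and 260.0 CPM in ADU-S100 tumors, against 199, 156 and 169.6 CPM in HBSS tumors. The groups were separate, but Irf1 passed the adjusted p (0.0341 by edgeR) and not the fold threshold, at 0.55 (SE 0.12). The receptor genes Ifnar1, Ifnar2, Ifngr1 and Ifngr2, the kinase genes Jak1, Jak2 and Tyk2 and the factor genes Irf2 and Irf8, named after their values were seen, were not called, with log2 fold changes between -0.34 (Ifnar1) and 0.35 (Irf8).

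Among gene groups that share the family's inducers are the immunity-related GTPases, some of which coat the same vacuoles. They were called higher 9 of 9 in ADU-S100 against HBSS (2.75% of all genes), with a median log2 fold change of 1.85. They include Irgm1 (1.92, SE 0.15), Igtp (2.25, SE 0.25), Ifi47 (1.15, SE 0.13) and Tgtp2 (1.82, SE 0.26). Of the type I interferon-stimulated genes 13 of 14 were called higher with a median of 2.38, among them Rtp4 (2.63, SE 0.17), the ubiquitin-like Isg15 (2.97, SE 0.23), Ifit1 (2.57, SE 0.23) and Usp18, which removes Isg15 from proteins (2.19, SE 0.24). The exception was Ifit2, at 0.89 (SE 0.18), named after its value was seen. Of the interferon-γ-inducible genes 7 of 12 were called higher with a median of 1.27, among them the chemokine gene Cxcl10 (1.82, SE 0.15), the immunoproteasome genes Psmb8 (1.04, SE 0.12) and Psmb9 (1.23, SE 0.16) and the checkpoint ligand gene Cd274 (1.5, SE 0.24). In the same list the MHC class II gene H2-Aa and its activator Ciita, also named after their values were seen, stood at -2.30 (SE 0.50, edgeR adjusted p = 0.0590) and -1.84 (SE 0.52, edgeR adjusted p = 0.102).

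Of 8 inflammasome genes, partners of the guanylate-binding proteins, 1 was called higher and 5 were higher at an unadjusted p under 0.05, with a median of 0.41. Of all 18911 genes, 520 were called higher and 2375 were higher at an unadjusted p under 0.05. The called gene was Casp4 (1.07, SE 0.15), the caspase that senses lipopolysaccharide. Casp1 was at 0.88 (SE 0.16) with an edgeR adjusted p of 0.0172, under the fold threshold, and Pycard and Gsdmd were at 0.61 (SE 0.16) and 0.34 (SE 0.11). Of 10 genes of the ubiquitin-like conjugation machinery that directs these GTPases to vacuoles, 0 were called by edgeR, 1 (Atg3, 0.35, SE 0.12) had an unadjusted p under 0.05, and the median was 0.03.

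In the combination against HBSS 0 genes of any of these lists were called by edgeR, as none was over all genes. At an unadjusted p under 0.05, 9 of 9 immunity-related GTPases, 13 of 14 type I interferon-stimulated genes, 9 of 11 interferon-γ-inducible genes tested, 4 of 8 inflammasome genes and 0 of 10 conjugation genes were higher. Of all genes, 11.0% were higher at that p. In cyto-IL-15 against HBSS 4 of 14 type I genes were lower at an unadjusted p under 0.05 with a list median of -0.55 on the log2 scale, while the immunity-related GTPases had a median of 0.06. There 706 of all 18594 genes had an unadjusted p under 0.05, 396 of them higher. Over all 12 tumors with and without ADU-S100, 8 of 9 immunity-related GTPases, 13 of 14 type I, 3 of 12 interferon-γ-inducible and 1 of 8 inflammasome genes were called higher. Of all genes, 1.06% were called higher there.

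The levels of the members varied together across tumors. Pearson's r between pairs of members, on log2(CPM + 0.5) over the 12 tumors, ran from 0.844 (Gbp8 and Gbp9) to 0.991 (Gbp4 and Gbp6). Among genes outside the family that averaged 1 CPM or more, those most like the mean of the 8 members included Gm12185 (r = 0.989) and Tgtp2 (r = 0.981), which belong to the list of immunity-related GTPases, Ms4a4c (r = 0.976) and Tnfsf8 (r = 0.974), the gene of CD30 ligand. Over the 10 tumors without 13 and 28LL the r values of these genes were 0.986, 0.976, 0.960 and 0.943 in the same order. The 12 points share 4 treatment groups and the normalization, so r describes these tumors.

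**Figure D4:**
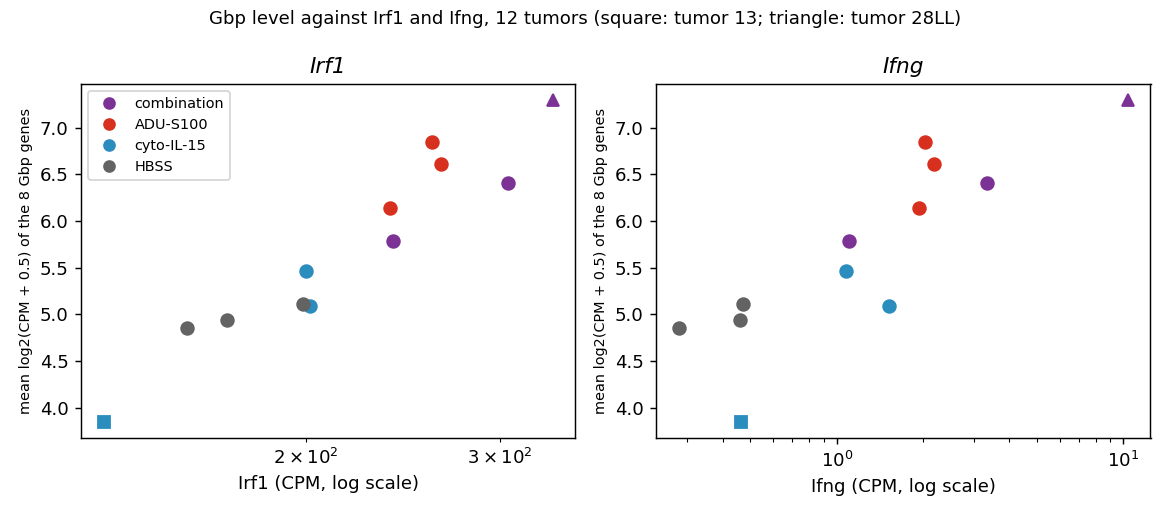
Mean log2(CPM + 0.5) of the 8 Gbp genes (vertical axis) against the CPM of Irf1 and Ifng (horizontal axes, log scale), 1 point per tumor, colored by group. Points run from tumor 13 (square) at 3.84 to tumor 28LL (triangle) at 7.30 on the vertical axis, with the combination tumors at 5.78 to 7.30 and the ADU-S100 tumors at 6.14 to 6.85, while Ifng spans 1.11 to 10.4 CPM in combination tumors and 1.94 to 2.18 CPM in ADU-S100 tumors.

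Markers of other cells moved with the same comparisons, and their part in the Gbp levels was not tested. For the counts below, 2.75% of all 18911 genes were called higher in ADU-S100 against HBSS. The natural killer cell list (Ncr1, Klrb1c, Klre1 and Eomes, all detected) summed to 35.1 to 326 CPM in combination tumors, 28.8 to 33.7 CPM in ADU-S100 tumors, 11.5 to 45.4 CPM in cyto-IL-15 tumors and 6.58 to 9.81 CPM in HBSS tumors, and 4 of 4 genes were called higher in ADU-S100 against HBSS. In 2 cyto-IL-15 tumors this list was above every ADU-S100 tumor while the summed Gbp level was below every ADU-S100 tumor. Within the combination, ADU-S100 and HBSS groups the tumors stood in the same order in both sums. Within the cyto-IL-15 group tumor 13 was lowest in both. The neutrophil list summed to 27.0 to 250 CPM in combination tumors, 20.3 to 46.5 CPM in ADU-S100 tumors, 13.2 to 24.5 CPM in cyto-IL-15 tumors and 16.8 to 21.4 CPM in HBSS tumors, with 3 of 5 genes called higher in ADU-S100 against HBSS and counts of 0 for Cxcr2 and Retnlg in an HBSS tumor. The macrophage and monocyte list summed to 840 to 2013 CPM in combination tumors, 667 to 979 CPM in ADU-S100 tumors, 438 to 1465 CPM in cyto-IL-15 tumors and 938 to 1212 CPM in HBSS tumors. In ADU-S100 against HBSS 1 of 6 genes (Ly6c2) was called higher. At an unadjusted p under 0.05, 2 genes were higher and 3 lower, with a median log2 fold change of -0.36. Of all 18911 genes, 4523 were under that p, 2375 of them higher.

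Ptprc, the pan-leukocyte gene, was at 166 to 774 CPM in combination tumors, 126 to 207 CPM in ADU-S100 tumors, 68.4 to 249.7 CPM in cyto-IL-15 tumors and 123 to 144 CPM in HBSS tumors, and in ADU-S100 against HBSS its log2 fold change was 0.39 (SE 0.18, edgeR adjusted p = 0.231). Tumor 28LL held the highest values of Ptprc and of the natural killer and neutrophil lists. Skeletal muscle genes summed to 56.5 to 3978 CPM in combination tumors, 149 to 1856 CPM in ADU-S100 tumors, 3.23 to 763 CPM in cyto-IL-15 tumors and 6.55 to 8.31 CPM in HBSS tumors. Tumor 20L had the lowest of these in its group and the lowest summed Gbp level in its group, while tumor 17LL had the highest muscle sum of the ADU-S100 tumors and the lowest Gbp sum.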

How the data were processed

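Bulk RNA of 12 TRAMP-C2 tumors (4 groups of 3, as labelled) was extracted with an RNeasy kit and sequenced from NEBNext Ultra II libraries. The deposited files hold raw read counts per Ensembl gene, made by the authors before deposit. Their processing notes name STAR 2.5.2b and Trimmomatic 0.36, featureCounts (Subread 1.5.2), bcl2fastq 2.20 and also DESeq2, as well as the builds GRCm38 and mm10. The strand setting, the handling of multi-mapping reads and the annotation release are not given in the sources used here, so reads shared by near-identical or overlapping genes cannot be assigned with certainty.

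Symbols came from the GENCODE M21 name table, which matched 48970 of 49315 identifiers. A separate model of the tumors compared was fitted per comparison in edgeR 4.0.16 (R 4.3.3, limma 3.58.1) with TMM normalization, filterByExpr (minimum count 10, minimum total 15) and the robust quasi-likelihood F test, two-sided, with Benjamini-Hochberg adjustment over all genes tested. Calls required both an adjusted p below 0.05 and a log2 fold change beyond 1 in either direction. Each SE was derived from the F test, as the absolute log2 fold change divided by the square root of F. The interaction used all 12 tumors, and the comparison over 6 and 6 tumors had ADU-S100 and cyto-IL-15 as terms. Levels are CPM on TMM library sizes of the 12 tumors and TPM on exon length, and correlations used log2(CPM + 0.5). DESeq2 1.42.0, other size factors, no filter, other sets of tumors in the fit and leaving out each tumor were alternatives. The scripts were tested on simulated data. Depth, 48772204 to 103700199 reads per tumor, gave every member at least 284 reads.

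The members, gene lists and marker lists were chosen with earlier results of these data known. All 8 members and the other Gbp genes were named, with up to 4 genes per list by smallest p in ADU-S100 against HBSS, plus Ifng, Irf1 and the 5 genes most like the family, and 1 gene that this rule names is not reported here. Genes named outside this rule are marked in the text as chosen after their values were seen.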

Additional observations from a re-analysis of the deposited data

Results flagged for a closer look

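Among the 6 tumors that received ADU-S100, the highest value of a pair of genes lay far from the rest. Gbp5 was at 135 CPM and Gbp8 at 52.4 CPM in combination tumor 28LL, each further from the next tumor than Dixon's 95% limit for 6 values allows. Among the 6 tumors that did not receive ADU-S100, Gbp9 was at 20.7 CPM in cyto-IL-15 tumor 13, which lay as far below the others by the same measure. The limit was exceeded in 3 of 16 groups of values. Chance gives about 1 in 20 for independent groups, but these are 2 sets of 6 tumors read through 8 correlated genes, and each set mixes 2 treatments, so the 3 cannot be set against that share.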

How the results depend on the processing

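By edgeR and DESeq2, 0 members were called under every alternative run for cyto-IL-15 against HBSS, the combination against cyto-IL-15, the combination against ADU-S100 and the interaction. For ADU-S100 against HBSS, one fit of all 12 tumors called 0 members. For the combination against HBSS, DESeq2 called 6 and the fit of 10 tumors (without 13 and 28LL) called 3. For ADU-S100 against cyto-IL-15, DESeq2 called 4 and the fit of 10 tumors called 5. Over the 6 and 6 tumors, DESeq2 called 8, the fit of 10 tumors 5, other size factors 5 and no filter 4. The causes were not tested. Leaving out 1 tumor at a time gave 5 to 8 members called for ADU-S100 against HBSS, 0 to 4 for the combination against HBSS, 0 to 3 for ADU-S100 against cyto-IL-15 and 2 to 8 over the 6 and 6 tumors. In the same order, 243 to 507, 0 to 184, 0 to 143 and 59 to 481 of all genes were called higher.

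Sign changes occurred only in the 3 comparisons in which no member was called or had an unadjusted p under 0.05. For cyto-IL-15 against HBSS, the fit of 10 tumors gave log2 fold changes of 0.33 for Gbp3, 0.29 for Gbp5, 0.12 for Gbp7 and 0.081 for Gbp9, and no filter gave -0.011 for Gbp6. Leaving out 1 tumor gave -0.36 to 0.39 for Gbp2, -0.55 to 0.34 for Gbp3, -0.16 to 0.66 for Gbp4, -0.35 to 0.30 for Gbp5, -0.40 to 0.38 for Gbp6, -0.38 to 0.13 for Gbp7, -0.19 to 0.35 for Gbp8 and -0.71 to 0.090 for Gbp9.

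For the combination against ADU-S100, the fit of 10 tumors gave -0.16 for Gbp2, -0.28 for Gbp4, -0.40 for Gbp5, -0.61 for Gbp6, -0.57 for Gbp7 and -0.26 for Gbp8. DESeq2 gave -0.0091 for Gbp2, and no filter gave -0.055 for Gbp2, -0.024 for Gbp6 and -0.0067 for Gbp7. Leaving out 1 tumor gave -0.27 to 0.21 for Gbp2, -0.28 to 0.63 for Gbp4, -0.40 to 0.88 for Gbp5, -0.60 to 0.37 for Gbp6, -0.57 to 0.35 for Gbp7 and -0.26 to 0.93 for Gbp8. For the interaction, the fit of 10 tumors gave -0.94 for Gbp4, -0.69 for Gbp5, -0.98 for Gbp6, -0.69 for Gbp7 and -0.60 for Gbp8. Leaving out 1 tumor gave -0.36 to 0.38 for Gbp2, -0.67 to 0.21 for Gbp3, -0.55 to 0.48 for Gbp4, -0.35 to 0.95 for Gbp5, -0.62 to 0.44 for Gbp6, -0.46 to 0.49 for Gbp7, -0.31 to 0.90 for Gbp8 and -0.43 to 0.37 for Gbp9.

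No paired analysis was possible because the labels give no replicate numbers, and any 2 groups share at most 1 leading number in their tumor names (20LL and 20L; 22R, 22LL, 22LR and 22), whose meaning is not stated. With 3 tumors per group, p-values rest on few degrees of freedom, and depth limited Ifnb1, which had at most 26 reads.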
